A study of Drosophila melanogaster with 6 samples.

Results

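The sweet gustatory receptors of Drosophila melanogaster were followed in the heads of flies whose mothers had eaten a high-sugar diet. They are the 9 genes Gr5a (Dmel_CG15779), Gr43a (Dmel_CG1712), Gr61a (Dmel_CG13888), Gr64a (Dmel_CG32261), Gr64b (Dmel_CG32257), Gr64c (Dmel_CG32256), Gr64d (Dmel_CG14987), Gr64e (Dmel_CG32258) and Gr64f (Dmel_CG32255), taken by their gene identifiers from the 17545 genes of each count table. The list was given by gene name and not by a threshold on a measured value. Of the 9 genes, 5 had enough counts to be tested between the groups, 1 had a single count, and 3 were at 0 in all 6 libraries.

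RNA-seq was performed on 3 ND and 3 HSD-F1 libraries of heads from flies aged 5 days, each library made from a pool of heads of female flies. The mothers of the ND flies had been raised from egg to adult on normal food with 10% sucrose, and the mothers of the HSD-F1 flies on food with 20% sucrose. The HSD-F1 flies themselves were raised on normal food, so the groups differ in the diet of the parents. The sample titles speak of the diet of ancestors without naming a sex, and the sucrose content is given for the mother only. In the study's general design the high-sugar generation was mated without a sex being named, so a part of the father's diet cannot be told apart here. In a separate behavior experiment the study fed the diet to mothers only or fathers only. It reported a weaker proboscis response to sugar only in offspring of the high-sugar mothers. All 6 libraries carry the same genotype label, W+VDRC, whereas the study describes wild-type Canton-S flies in its account of the diet experiment. The study asked how sweet taste changes in the offspring, and the comparison of HSD-F1 with ND asks whether the mRNA of the receptors that detect sugars differed in amount. Legs and wings, which also carry taste bristles, were not part of the sample.

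Gustatory receptors are membrane proteins that work as ligand-gated cation channels in taste neurons. Sugars are sensed by one class of neurons in the bristles of the labellum, the tip of the proboscis, and in the pharynx, and several sweet receptors are present together in one neuron. Activity of these neurons drives extension of the proboscis and feeding, whereas bitter receptors sit in other neurons and drive avoidance. Because a taste neuron is a rare cell in the head, its receptor mRNAs make up a very small part of a head library. In such bulk samples fewer sweet neurons and less receptor mRNA per neuron cannot be told apart.

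The genome positions of the genes decided which receptors could be measured. Positions are those of the deposited tables, on the Release 6 assembly. The 6 Gr64 genes lie in a row on the + strand of chromosome 3L. Gr64a (chr3L:4026769-4028600), which in flies is needed for the response to sucrose and maltose, has 1488 exon bases, and all of them are its own. Gr64f (chr3L:4035799-4037575), a co-receptor for other sweet receptors, has 1446 exon bases that no other gene on its strand shares. Gr64b and Gr64c (both chr3L:4028605-4032032) are annotated with the same 2858 exon bases, so neither has a base of its own. Gr64d (chr3L:4032062-4035703) and Gr64e (chr3L:4032141-4035703), the latter a receptor for glycerol and fatty acids, share 2882 bases, which leaves 79 bases to Gr64d and 27 to Gr64e. Gr64b, Gr64c and Gr64e were at 0 in every library, and Gr64d had 1 count, in ND replicate 1.

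**Figure D1:**
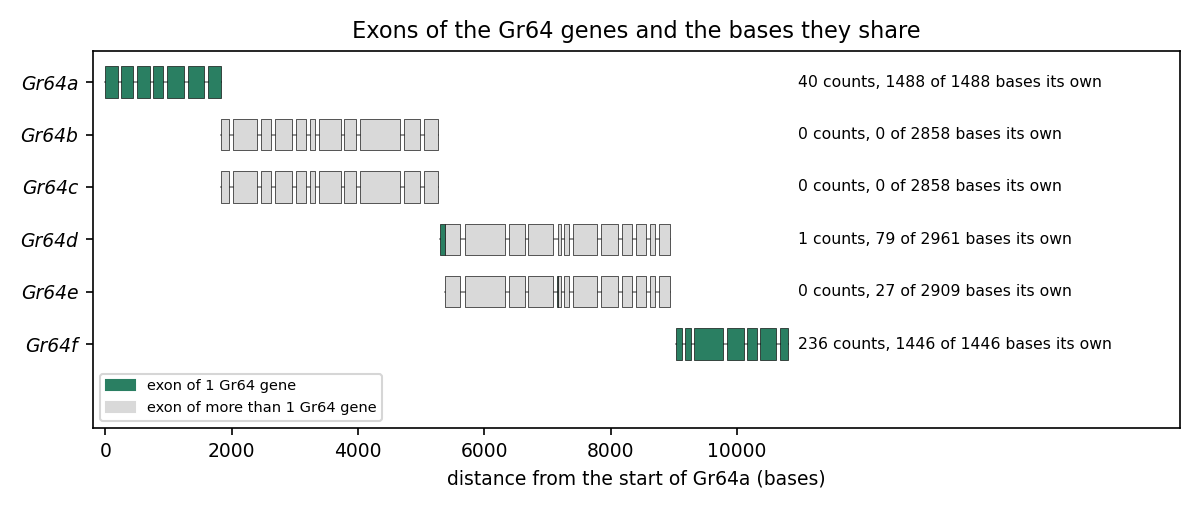
Exons of the 6 Gr64 genes, drawn to scale by distance in bases from the start of Gr64a, with bases of 1 Gr64 gene in green and bases of more than 1 in grey. Gr64b and Gr64c have 0 bases of their own and 0 counts over the 6 libraries, whereas Gr64a and Gr64f, which share no base with another Gr64 gene, have 40 and 236 counts.

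The zeros of the middle Gr64 genes followed the annotation across the whole table. Of 503 genes without an exon base of their own on their strand, 503 were at 0 in all 6 libraries, against 2171 of the 17042 genes with at least 1 such base (12.7%). The same held across strands. Of 139 genes whose every exon base was shared with a gene on the opposite strand but with none on their own strand, 139 were at 0. Tat was the only gene of 649 without an unshared base on either strand that had any count, 1 in ND replicate 3 and 2 in HSD-F1 replicate 1. The zeros of Gr64b and Gr64c are therefore no measure of their mRNA. Gr64d and Gr64e have few bases of their own. Of 41 protein-coding genes with at least 1 but under 100 such bases on their strand, 27 were at 0 in all libraries (65.9%). The highest sum of the 41 was 90 counts. Over genes of all kinds, as in the counts above, 325 of 607 such genes were at 0 (53.5%), and the highest sum was 11274 counts. None of Gr64b, Gr64c, Gr64d and Gr64e entered the main test between the groups. The detection limit of 3 counts, which came to between 0.114 and 0.148 CPM, the count scaled to a common depth of library,, holds for reads that fall on 1 gene only.

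The other members differed in how much of their sequence is shared across strands. Gr61a (chr3L:841451-843701, + strand), a glucose receptor, has 1868 exon bases and shares none. Gr43a (chr2R:7390869-7393161, - strand), a fructose receptor that is also present in a few brain neurons, shares 155 of 1527 bases with the helicase gene Dhx15. Gr5a (chrX:5680617-5682488, + strand), the trehalose receptor whose neurons the study used as its sweet neurons, shares 1108 of 1490 bases (74.4%) with the antisense gene asRNA:CR44958, which leaves 382 bases shared with no gene. Gr64f shares 53 bases with CG11593 on the opposite strand, and Gr64a shares none.

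Gr64f had the most counts of the 5 measured sweet receptors in every library. It had 44, 37 and 34 counts in ND replicates 1, 2 and 3, and 23, 41 and 57 counts in the HSD-F1 replicates. Scaled for depth, this was 1.49 ± 0.237 CPM for ND against 1.65 ± 0.556 CPM for HSD-F1 (SD, n = 3 each). Gr64f gave between 43.0% and 58.7% of the counts of the 5 measured receptors in a library. The lowest and the highest library were both HSD-F1 libraries, and the 3 ND values lay between them, so the groups overlapped.

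Gr43a came next, with 19, 10 and 16 counts in ND and 10, 15 and 26 counts in HSD-F1. Its level was 0.586 ± 0.192 CPM for ND against 0.697 ± 0.284 CPM for HSD-F1 (SD, n = 3 each). HSD-F1 replicate 3 stood highest, and the other HSD-F1 libraries lay inside the range of ND.

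Gr61a had 9, 6 and 14 counts in ND and 8, 6 and 20 counts in HSD-F1. The means were 0.376 ± 0.157 CPM and 0.470 ± 0.285 CPM (SD, n = 3 each). Again HSD-F1 replicate 3 was the highest library, and replicate 2 of both groups was low.

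Gr5a gave a different order of the libraries. It had 12, 8 and 7 counts in ND and 9, 13 and 4 counts in HSD-F1, or 0.351 ± 0.113 CPM and 0.367 ± 0.184 CPM (SD, n = 3 each). HSD-F1 replicate 3, the highest library for Gr64f, Gr43a and Gr61a, was the lowest for Gr5a.

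Gr64a had 7, 2 and 8 counts in ND and 3, 15 and 5 counts in HSD-F1. Its level was 0.222 ± 0.127 CPM for ND against 0.307 ± 0.234 CPM for HSD-F1 (SD, n = 3 each). It was highest in HSD-F1 replicate 2, and in ND replicate 2 and HSD-F1 replicate 1 it did not exceed 3 counts. The other 4 measured receptors had more than 3 counts in every library.

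**Figure D2:**
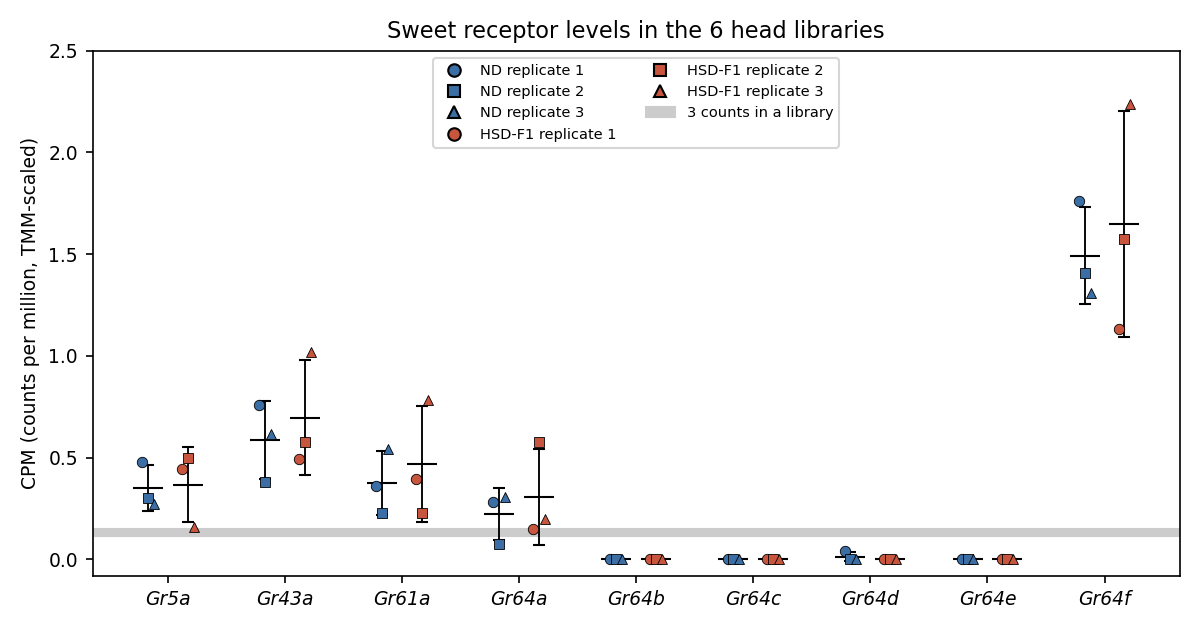
CPM of each sweet receptor in the 6 libraries, with ND in blue and HSD-F1 in red, the shape giving the replicate number, the horizontal tick and bars the mean and SD of 3 libraries, and the grey band the 3-count limit of 0.114 to 0.148 CPM. Gr64f stands above the other receptors, its ND libraries between the lowest and the highest HSD-F1 library, and Gr64b, Gr64c, Gr64d and Gr64e lie below the band.

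Levels of different genes were set side by side per length, as RPKM, the CPM divided by the kilobases of exon in the tables. The mean of the 6 libraries was 1.09 ± 0.271 RPKM for Gr64f, 0.420 ± 0.148 for Gr43a, 0.241 ± 0.0917 for Gr5a, 0.227 ± 0.114 for Gr61a and 0.178 ± 0.117 for Gr64a (SD, n = 6). Gr64f exceeded Gr43a in 6 of 6 libraries, by 0.667 RPKM on average with an SD of 0.156. Gr43a was above Gr5a in 6 of 6 libraries, but the mean difference of 0.179 RPKM was smaller than its SD of 0.205. Over the full exon length, Gr5a, Gr61a and Gr64a could not be ordered. Mean differences between neighbours were 0.0144 and 0.0490 RPKM, against SDs of 0.193 and 0.180. Among the 12048 genes tested, the RPKM of the 5 receptors lay between the percentiles 8.77 for Gr64a and 24.2 for Gr64f.

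The place of Gr5a in this order depended on the length used. The 139 genes whose every exon base is shared with the opposite strand alone were all at 0. Bases shared that way thus gave few or no counts, and the full exon length sets Gr5a too low. When the level was taken over bases shared with no other gene on either strand, a choice made after seeing the data, Gr5a came to 0.940 ± 0.358 RPKM (SD, n = 6) and moved from the third to the second rank. Gr64f was then at 1.13 ± 0.281 RPKM and above Gr5a in 4 of 6 libraries, and Gr5a was above Gr43a in 5 of 6. The other receptors moved by less than their spread, and Gr61a and Gr64a stayed at 0.227 and 0.178 RPKM. A change of length is the same in every library, so it leaves the comparison of HSD-F1 with ND as it is.

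The carbon dioxide receptors and the most abundant bitter receptors per length lay in the same range of levels. Gr63a and Gr21a, the pair of carbon dioxide receptors of the antenna, were at 0.934 ± 0.111 and 0.436 ± 0.0777 RPKM. Of the bitter receptors, Gr32a was at 0.668 ± 0.139 RPKM and Gr66a, which marks bitter neurons, at 0.641 ± 0.136 RPKM (SD, n = 6 each). The lowest of the 8 tested bitter receptors was at 0.0983 RPKM, below the lowest tested sweet receptor. Gr64f had the highest mean RPKM of the 34 gustatory receptor genes that were tested.

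**Figure D3:**
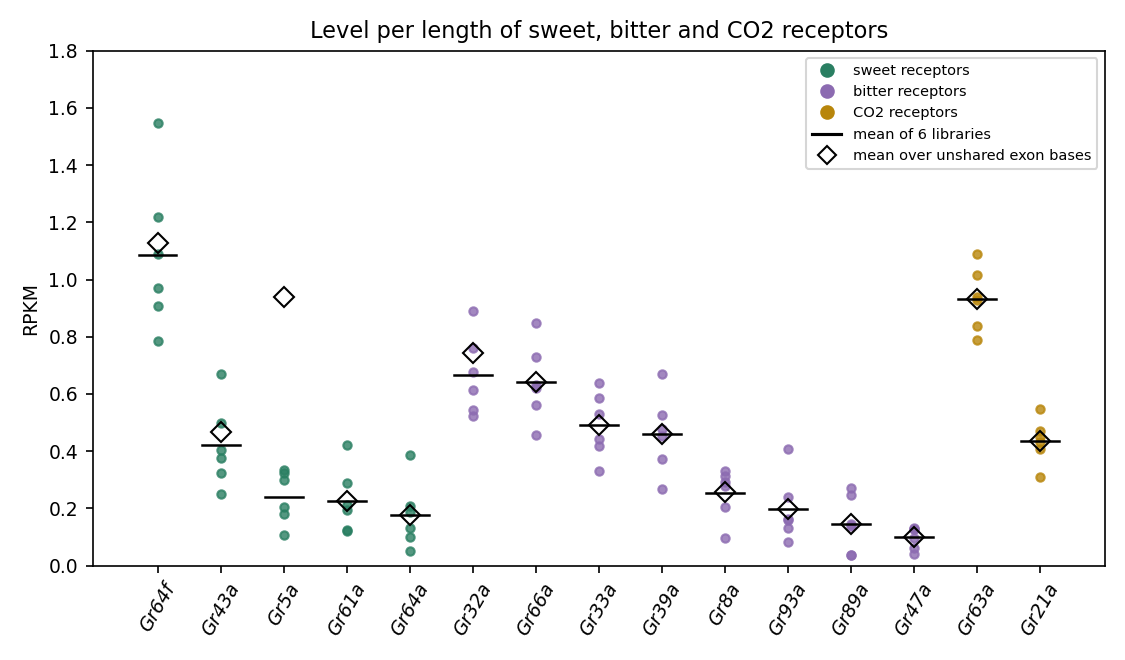
RPKM of the tested sweet, bitter and carbon dioxide receptors in the 6 libraries (points), with the mean over the exon length of the tables (line) and the mean over exon bases shared with no other gene (open diamond). Gr64f is the highest at 1.09 RPKM, and Gr5a is the receptor whose diamond, at 0.940, lies far above its line, at 0.241.

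No sweet receptor differed between HSD-F1 and ND beyond the spread of the libraries. A call needed an unadjusted p under 0.05 in edgeR's quasi-likelihood test together with a change of at least 1.5-fold. Of the 5 receptors tested, 0 were called, against 1.81% of all genes tested, and 0 passed an adjusted p of 0.05, against 0.0664% of all genes. None of the 5 had an unadjusted p under 0.05 in edgeR, DESeq2 or limma-voom. In 0 of the 5 the CPM of the groups did not overlap, against 11.8% of all genes.

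The edgeR estimates had the shortest interval for Gr64f, the receptor with the most counts. For Gr64f the log2 fold change of HSD-F1 over ND was 0.15 ± 0.29 (SE), with a 95% interval from -0.50 to 0.81 and an adjusted p of 0.975 in edgeR. This interval runs from 0.706-fold to 1.75-fold, so a change larger than that lies outside it. For Gr43a the log2 fold change was 0.26 ± 0.41 (SE), with an interval from 0.629-fold to 2.28-fold and an adjusted p of 0.970 in edgeR. For Gr61a it was 0.32 ± 0.53 (SE), from 0.540-fold to 2.91-fold, with an adjusted p of 0.971 in edgeR. For Gr5a it was 0.05 ± 0.50 (SE), from 0.471-fold to 2.29-fold, with an adjusted p of 0.992 in edgeR. Gr64a had the fewest counts and the widest interval, 0.50 ± 0.67 (SE), from 0.490-fold to 4.08-fold, with an adjusted p of 0.965 in edgeR. Two-sided exact permutation tests on CPM gave p between 0.6 and 0.9 for the 5 receptors, where 3 libraries against 3 allow no p below 0.1 in an exact test.

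**Figure D4:**
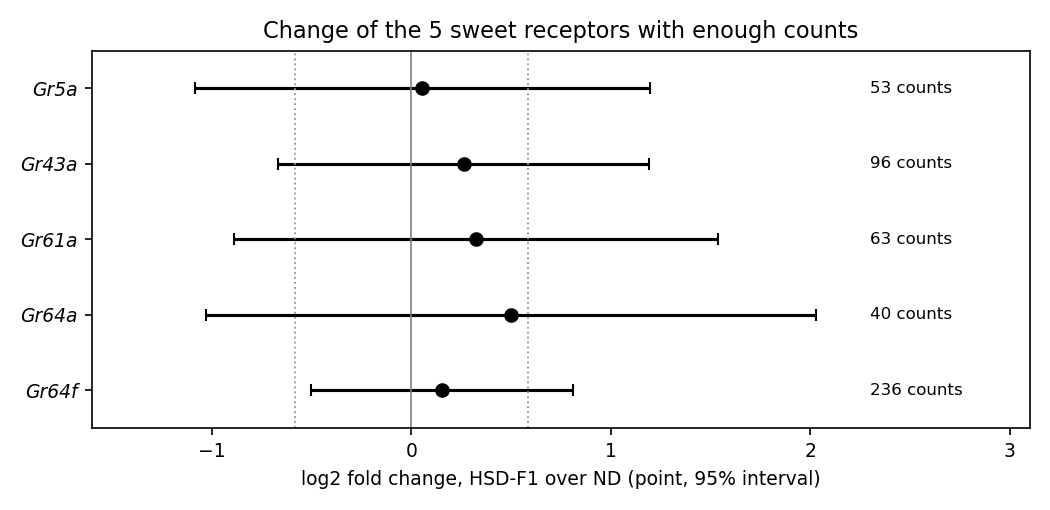
log2 fold change of HSD-F1 over ND from edgeR for the 5 tested receptors (point) with its 95% interval (bar), the dotted lines at 1.5-fold in either direction and the summed counts of the 6 libraries at the right. Every interval crosses 0, and the shortest, that of Gr64f with 236 counts, runs from -0.50 to 0.81.

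All 5 estimates were above 0, with a median log2 fold change of 0.26 against -0.0026 over all genes tested. For 3 of the 5 this direction rested on HSD-F1 replicate 3. Without it, the log2 fold changes were -0.13 for Gr64f, -0.12 for Gr43a and -0.29 for Gr61a, and 2 of the 5 receptors were above 0. Gr64a turned to -0.34 without HSD-F1 replicate 2. Of the 1523 genes whose summed counts lay in the range of the 5 receptors, from 40 to 236, 50.5% had an estimate above 0 and 5.25% were called.

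The summed level of the 9 receptors was as variable as its parts. The sum was 92, 63 and 79 counts in ND and 53, 90 and 112 counts in HSD-F1. This was 3.04 ± 0.645 CPM for ND against 3.49 ± 0.894 CPM for HSD-F1 (SD, n = 3 each), a log2 ratio of 0.20, and the groups overlapped. Without HSD-F1 replicate 3 the log2 ratio was -0.0033. For the 6 Gr64 genes alone the log2 ratio was 0.18, and Gr64f gave 85.2% of their counts. Gr64b, Gr64c and Gr64e added 0 counts to both sums and Gr64d added 1, as these genes have few or no bases of their own. The Gr64 sum thus rests on Gr64a and Gr64f, with 40 and 236 counts. The share of Gr64f is no measure of its part in the mRNA of the 6 genes.

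The spread between libraries differed little from counting error in ND and was larger in HSD-F1. The SD of depth-scaled counts was between 0.967 and 1.37 times the SD that counting alone gives for the 5 receptors in ND, and between 1.48 and 2.12 times in HSD-F1. Each ratio comes from 3 libraries, and the difference between the groups in spread was not tested. The shares show the same unevenness, since Gr5a gave 3.57% of the counts of the 5 receptors in HSD-F1 replicate 3 and 17.0% in HSD-F1 replicate 1.

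The other gustatory receptors were taken as the next genes of the same family. Of the 51 other Gr genes, 29 were tested, 15 with an estimate above 0 and 14 below, with a median log2 fold change of 0.04. 1 gene of the 29 was called lower, against 1.81% of all genes called in either direction, 0 were called higher and 0 passed the adjusted threshold. The share called was 5.25% among genes with summed counts from 40 to 236. Of the 10 bitter receptors 8 were tested, with 3 estimates above 0, 5 below and a median of -0.03. The log2 fold change was 0.16 for Gr66a and 0.06 for Gr32a, and neither was called. Both carbon dioxide receptors were tested, with log2 fold changes of -0.30 for Gr21a and -0.0024 for Gr63a, and neither was called. Gr28b, a receptor with roles in heat and light sensing, was at 0.04 and was not called.

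The called gene was Gr39a (Dmel_CG31622), which encodes several receptors of bitter neurons from alternative first exons. It had 50, 48 and 66 counts in ND and 35, 37 and 26 counts in HSD-F1. The 3 HSD-F1 libraries all lay below the 3 ND libraries in CPM, where 11.8% of all genes had groups that did not overlap. The log2 fold change was -0.62 ± 0.26 (SE), with p = 0.0414 and an adjusted p of 0.911 in edgeR and p = 0.1 in the exact permutation test, so the difference did not pass the adjusted threshold. The call was lost in DESeq2, at a log2 fold change of -0.63, and when replicate 3 of both groups was left out, at -0.29. It was also lost without ND replicate 1 (-0.66), ND replicate 3 (-0.47), HSD-F1 replicate 2 (-0.64) or HSD-F1 replicate 3 (-0.44).

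Taste genes outside the Gr family gave 1 further call among 8 tested of 13 listed, against 1.81% of all genes called. Among genes with summed counts from 40 to 236, 5.25% were called. Ir56d (Dmel_CG15904), an ionotropic receptor that in flies is needed for the taste of fatty acids and is present in sweet neurons, had 1, 6 and 2 counts in ND and 9, 8 and 9 counts in HSD-F1. Of the ND libraries, replicates 1 and 3 lay under the limit of 3 counts. The HSD-F1 libraries all lay above the ND libraries in CPM, as against 11.8% of all genes without overlap. The log2 fold change was 1.61 ± 0.59 (SE), with p = 0.0243 and an adjusted p of 0.911 in edgeR and p = 0.1 in the exact permutation test. The call was lost in DESeq2, at a log2 fold change of 1.66, and without ND replicate 1 (1.23), ND replicate 3 (1.39) or HSD-F1 replicate 1 (1.47), and with replicates 1 and 2 of each group alone (1.41). Its co-receptors Ir25a and Ir76b, which work with many ionotropic receptors, were at log2 fold changes of -0.20 and 0.0044, and ppk29, a channel subunit of pheromone-sensing neurons, was at -0.04. None of the 3 was called, and the median of the 8 genes was -0.09.

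**Figure D5:**
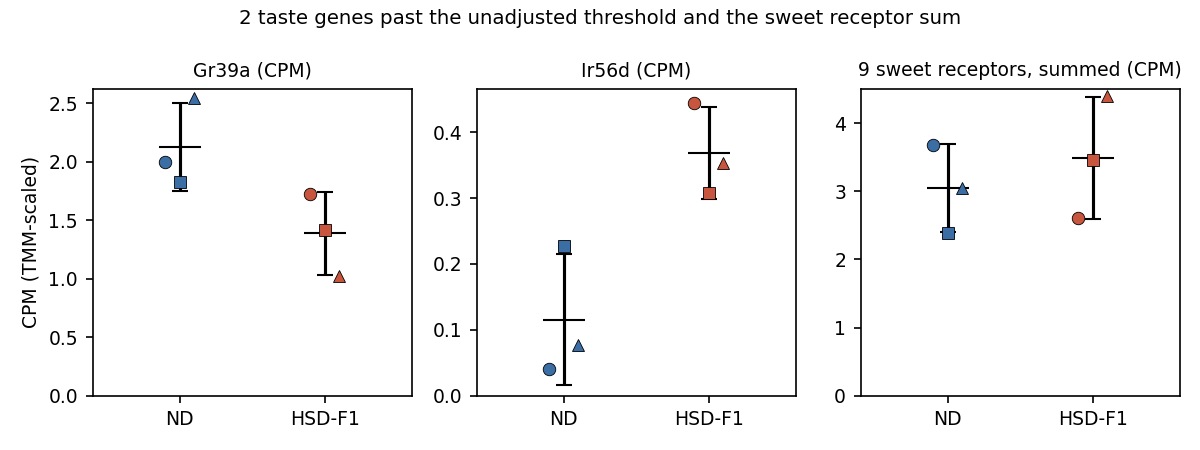
CPM of Gr39a, of Ir56d and of the 9 sweet receptors summed in the 3 ND and 3 HSD-F1 libraries, with the replicate number as shape and the mean and SD of 3 libraries in black; each vertical axis starts at 0. The groups do not overlap for Gr39a and Ir56d, whose adjusted p is 0.911 for both, and they overlap for the sweet receptor sum, with means of 3.04 and 3.49 CPM.

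Genes that act downstream of the receptors, or tune the neurons that carry them, showed no call. Of 8 genes linked to sugar taste signaling, 8 were tested, 0 were called and the median log2 fold change was -0.10. They include Ggamma1, a G protein subunit reported in sugar-sensing neurons (log2 fold change -0.0062), Galphaq (-0.07) and norpA, the phospholipase C of phototransduction (-0.16), all of which are used widely in the head. Of 10 modulators of sweet neurons, such as DopEcR, a dopamine and ecdysteroid receptor (-0.02), the neuropeptide gene sNPF (-0.06) and GABA-B-R2, an inhibitory receptor (-0.10), 10 were tested and 0 were called, with a median of -0.04. Since these mRNAs come from the whole head, their levels do not describe the taste neurons alone.

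The libraries held between 20266352 and 26190694 counts, with HSD-F1 replicate 1 the shallowest. Markers of the head's sense organs were present in all 6. The 10 olfactory organ markers, among them Orco, Obp83a and Obp28a, summed to 489 CPM in HSD-F1 replicate 1 and to between 605 and 706 CPM in the other 5 libraries. The markers did not move together. In HSD-F1 replicate 1 Obp83a was at 186 CPM, against 296 to 371 CPM in the other libraries. Orco was also lowest in HSD-F1 replicate 1, at 53.3 CPM, whereas Obp28a, at 155 CPM, was above every ND library. In the same library the sweet receptor sum, 2.61 CPM, was above that of ND replicate 2 only, at 2.39 CPM. The 8 markers of bristles and sensory cilia, with Rfx, btv and rempA the most abundant, lay between 49.7 and 61.7 CPM. Of the olfactory and the bristle markers, 0 were called.

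Signs of other tissues differed between libraries. The 10 ovary and egg markers summed to 55.4 CPM in ND replicate 3 and 13.9 CPM in HSD-F1 replicate 3, and to between 4.03 and 4.67 CPM in the other 4 libraries, with Cp36 and Cp38, proteins of the egg shell, and yellow-g the most abundant. HSD-F1 replicate 3, in which Gr64f, Gr43a and Gr61a were highest, thus also had more egg shell counts, mainly of Cp36 and Cp38, than all other libraries but ND replicate 3. In ND replicate 3 Gr64f was at 1.31 CPM, the lowest of the ND libraries. Gr43a, at 0.617 CPM, was in the middle of the ND libraries there, and Gr61a, at 0.540 CPM, was the highest of them. With replicates 1 and 2 of each group alone, a choice made after seeing the data, the log2 fold change was -0.21 for Gr64f, -0.08 for Gr43a, 0.06 for Gr61a, 0.28 for Gr5a and 1.09 for Gr64a, with a median of 0.06, and none was called. The log2 ratio of the summed receptors was -0.0018. The 6 midgut markers, with alphaTry, betaTry and Npc1b leading and thetaTry at 0, summed to 8.73 CPM in ND replicate 1 and 9.47 CPM in HSD-F1 replicate 1 and to between 0.307 and 1.98 CPM elsewhere. The high sums lay in alphaTry and betaTry, whereas Npc1b was highest in ND replicate 2, at 0.456 CPM. The 6 fat body markers, led by the yolk protein genes Yp1, Yp2 and Yp3, ranged from 64012 to 82114 CPM, and the 5 flight muscle markers, led by Mlc2, up and Act88F, from 1614 to 2254 CPM. None of these tissue markers was called, and their part in the receptor levels was not tested.

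The genes most like the summed sweet receptors in pattern were CG34228 (Pearson r = 0.999), CG34208 (0.988), H15, a T-box transcription factor gene (0.985), CG8366 (0.985) and CG14321 (0.984). The likeness was taken on log2 CPM over 6 libraries, among 9706 genes with at least 10 counts in every library, of which 47 had an r above 0.9. It is a description of 6 points that share depth and pool of heads.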

How the data were processed

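The 6 deposited tables hold raw counts per gene, with the exon positions, strand and length of each of 17545 genes. The submitters' processing notes name HISAT2 2.0.4, Bowtie2 2.2.5, RSEM 1.2.12 and DESeq2 1.4.5 without saying what each did; the program that counted the reads and its strand setting are not given in the sources used here. Gene names came from RefSeq by locus tag for 17504 of 17545 genes, on Release 6 of the genome.

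The 12048 genes whose counts summed to 10 or more were tested with edgeR 4.0.16 (TMM scaling, quasi-likelihood test, Benjamini-Hochberg adjustment; R 4.3.3). The 1.5-fold and unadjusted p threshold is that of the study. edgeR gives no SE for this test, so the SE was derived from its output. It is the size of the log2 fold change divided by the square root of the F statistic. The 95% interval was built from this SE with the t distribution. Alternatives were other scaling, other filters, DESeq2 1.42.0, limma 3.58.1 (voom), a replicate block and leaving out each library. CPM used TMM-scaled totals, and RPKM divided them by exon length. Exon bases shared between genes were counted from the tables. Figures were drawn with matplotlib 3.10.9.

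The members and lists were chosen with earlier results of these data known. Named are all 9 members, up to 3 genes of each list with the most counts and those past the unadjusted threshold, and the 5 genes most like the summed members; Dhx15, CG11593, asRNA:CR44958, thetaTry and Tat were added after their values were seen. The labels do not say whether replicates are separate pools of parents, so p-values measure the spread between these libraries. Counting limits cover counting error only.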

Additional observations from a re-analysis of the deposited data

How the results depend on the processing

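The sweet receptors kept their side of both thresholds under every alternative: 0 of the members tested (6 of them, with Gr64d, where 1 count was enough) were called under each of the 13 other settings and without the fold threshold, and the 62 alternative values of the 5 receptors had unadjusted p between 0.233 and 0.951. With at least 10 counts in every library only Gr43a and Gr64f remained to be tested. The sign was not stable in 11 of the 62. Gr5a was at -0.055 in limma-voom and between -0.26 and 0.43 when 1 library was left out. The other ranges on leaving out 1 library were -0.12 to 0.49 for Gr43a, -0.29 to 0.68 for Gr61a, -0.34 to 0.82 for Gr64a and -0.13 to 0.35 for Gr64f, and with replicates 1 and 2 of each group Gr43a was at -0.077 and Gr64f at -0.21. The median of the members ranged from -0.12 to 0.43 and the log2 ratio of their sum from -0.0033 to 0.37 on leaving out 1 library.

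Replicate numbers are shared between the groups, but the labels do not say that they mark pairs, and the main test took none. Same-numbered libraries deviated together with correlations of 0.239, 0.0347 and 0.194 for replicates 1, 2 and 3. Different-numbered libraries had correlations from -0.271 to 0.0522, so the values of replicates 1 and 3 lay above all of these. What same-numbered libraries share was not tested. With a replicate block the median log2 fold change of the members was 0.26, the log2 ratio of their sum 0.19, that of the Gr64 genes 0.14 and the number called 0. Over all genes, 38 passed the adjusted threshold with the replicate block, 28 in DESeq2 and 8 in edgeR without it.

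Calls of Gr39a and Ir56d were lost under 6 of 13 and 5 of 12 alternatives, with unadjusted p up to 0.314 and 0.102. The receptors had between 40 and 236 counts over 6 libraries, and how far depth or the spread between libraries sets the intervals was not tested.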
